A study of Canis lupus familiaris with 31 samples.

Results

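The genes described here are 42 genes whose products run the cell division cycle, from the licensing of replication origins to the separation of chromosomes, measured in whole blood of dogs with and without raised blood triglycerides (HTG). They were taken by gene symbol from the deposited count table, where 39 of the 42 were found among 32704 rows, and all 39 passed the filter on low counts. CCNB1, MAD2L1 and CENPF were not analysed here. RNA-seq was performed on 31 Miniature Schnauzers with 1 library per dog. The 13 HTG cases (5 females and 8 males) had raised fasting triglycerides that arose spontaneously, and the 18 controls (8 females and 10 males) had normal triglycerides. All dogs were adult to elderly, client-owned pets kept on different diets and nearly all were neutered, so that diet and surroundings were not set by the study. A pair of controls shared a household, and the labels name no treatment in either group.

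Before a cell divides, the MCM proteins are loaded onto replication origins with the help of CDC6, the copied DNA is built from nucleotides supplied by ribonucleotide reductase and thymidylate synthase, and cyclins with their kinases drive the cell on to mitosis, where a checkpoint holds the chromosomes until each is attached to the spindle. Most mature blood cells no longer divide. Cells in circulation that can still hold these transcripts include immature red cells, early granulocytes, and activated lymphocytes with the plasmablasts that form from them. In whole blood, more cells of such a type and more transcript per cell cannot be told apart.

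Total counts per dog ran from 14524659 to 41533599, with medians of 20588919 in HTG dogs and 19679367 in controls, and 13918 rows were tested. The lowest count of any of the 39 genes in any dog was 9, for CCNB2, and 34 of the 39 had at least 30 counts in every dog. Levels are given as CPM (counts scaled to library size, per 1e+06 counts), scaled by the trimmed mean of M values (TMM), and are compared only between dogs, since CPM do not allow for gene length. Some features of the dogs bear on what follows. Firstly, 18 of the 39 genes were highest in control 03, 11 in control 14 and 5 in control 09, all of them male controls. Control 03 also had the lowest total count of all dogs, 14524659. Its influence was not limited to the 39 genes. In the HTG comparison by edgeR, 154 of all genes passed the adjustment without control 03, against 5 with all dogs. The share of all genes highest in these dogs is not given here, and the part of the library of control 03 in its high levels was not tested. In addition, 10 dogs (5 HTG and 5 control) had higher counts of small RNA genes, at least 1.82 against at most 1.46 mean log2 CPM in the other 21. None of the 39 genes passed the test between these sides (edgeR, smallest adjusted P = 0.0648), while 7.57% of all genes did, and control 03 and control 14 were on the high side. Of the cell type markers that passed the filter, all had counts in every dog except MPO and CTSG, of early granulocytes, and CD34, of stem cells, which were at 0 in 1 dog each. ELANE, another defining early granulocyte marker, was at 0 in 4 dogs and did not pass the filter.

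No cell cycle gene was found to differ between HTG dogs and controls. Of the 39, 0 had an adjusted P at or below 0.05 by edgeR's quasi-likelihood test, where 0.0359% of all genes tested passed, and 0 passed by DESeq2 or limma-voom. Only TYMS had an unadjusted P under 0.05 (1 of 39 by each of the 3 tools, against 9.81% of all genes by edgeR). The log2 fold changes ran from −0.29 for CCNE2 to 0.37 for TYMS with a median of −0.03, where the median of all genes was −0.02, and 14 of the 39 lay above 0. The 95% intervals reached a median of 0.35 on the log2 scale to either side of the fold change, 24 of the 39 intervals lay within 0.5 of 0 on either side, and the widest bounds were −0.71 for CCNE2 and 0.74 for BIRC5. The median lay close to 0 over all dogs and its sign was not stable. It was 0.06 by limma-voom and 0.11 in the dogs low in small RNA alone, against −0.26 in those high in it. With the primary granule marker score, described later, as a covariate it was −0.17. With control 03, control 09 and control 14 left out, 34 of the 39 lay above 0 with a median of 0.17, and 6 (15.4%) had an unadjusted P under 0.05, against 17% of all genes in the same fit, but none an adjusted P at or below 0.05. These dogs were left out because they were high, so that a shift upwards was fixed by the choice.

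**Figure D1:**
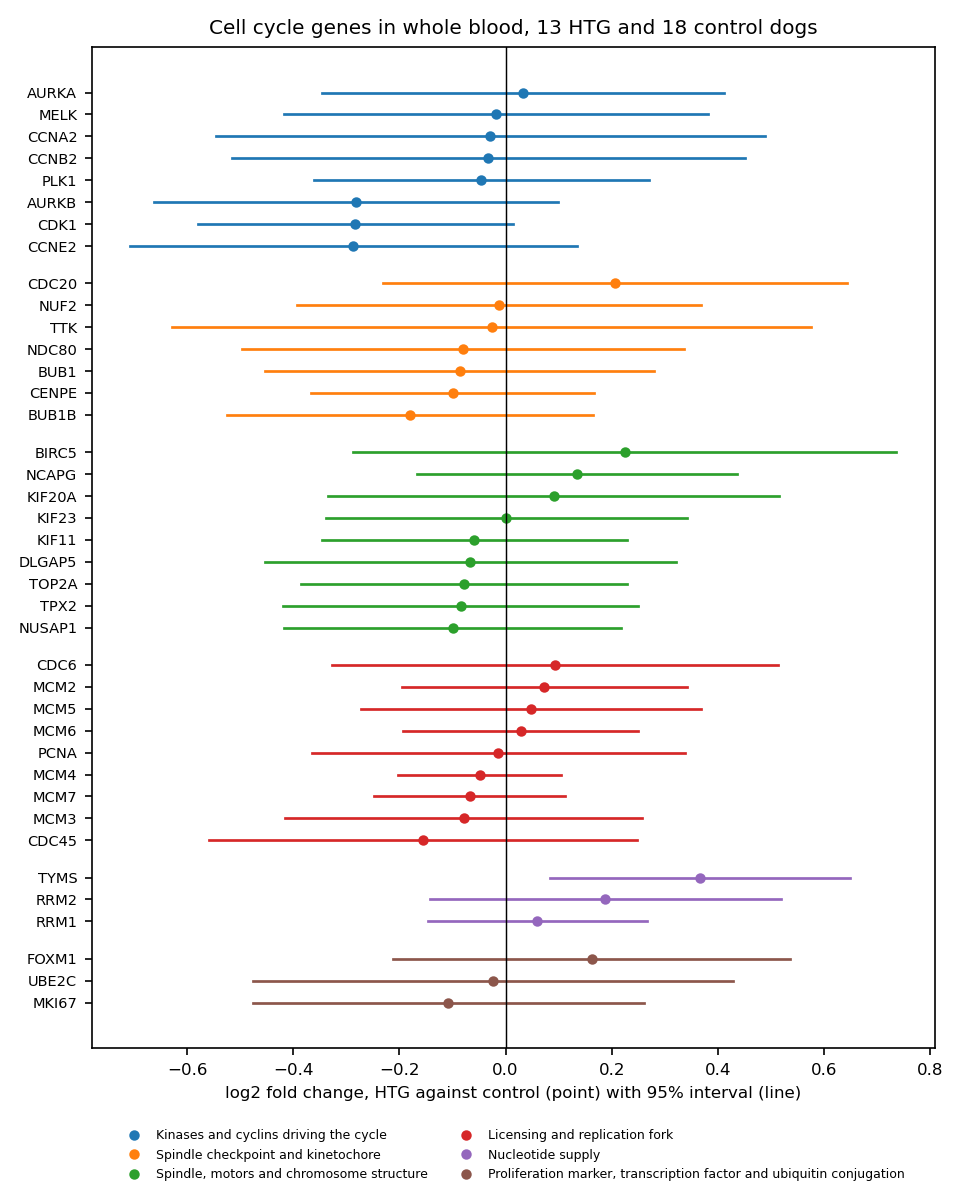
Log2 fold change of each of the 39 cell cycle genes between 13 HTG and 18 control dogs (points, x axis) with its 95% interval (lines), grouped and coloured by the role of the gene. The intervals of all genes but TYMS include 0.

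The kinases and cyclins drive entry into and passage through mitosis. Of the 8 measured, 0 passed the test, and 1 of 8 lay above 0 with a median log2 fold change of −0.04. CDK1 (ENSCAFG00000012904), the kinase that starts mitosis, was at 2.57 to 5.37 CPM in HTG dogs (median 3.76) and 3.17 to 9.42 CPM in controls (median 4.50). The groups overlapped over most of their range, and 4 of 13 HTG dogs lay above the control median. Its log2 fold change was −0.28 (SE 0.15, P = 0.0607, adjusted P = 0.542). Control 03 held the highest CDK1 level, and the difference was −0.59 (SE 0.25) within the dogs high in small RNA and −0.15 (SE 0.17) within the others. AURKB (ENSCAFG00000017008), the kinase that corrects faulty attachments to the spindle, was at 1.42 to 8.18 CPM in HTG dogs (median 5.08) and 3.10 to 9.73 CPM in controls (median 6.96), with a log2 fold change of −0.28 (SE 0.19, adjusted P = 0.648). Here 3 of 13 HTG dogs exceeded the control median, and the difference was −0.81 (SE 0.36) within the dogs high in small RNA and −0.03 (SE 0.20) within the others. CCNE2 (ENSCAFG00000009408), a cyclin of the entry into replication, had medians of 2.05 and 2.47 CPM in HTG dogs and controls, and a log2 fold change of −0.29 (SE 0.21, adjusted P = 0.682). The cyclins of later phases, CCNA2 and CCNB2, and the kinases PLK1, AURKA and MELK had log2 fold changes between −0.05 and 0.03.

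Checkpoint and kinetochore genes, which hold back chromosome separation and link chromosomes to the spindle, had 1 of 7 above 0, a median log2 fold change of −0.08, and 0 past the test. BUB1B (ENSCAFG00000008877), a checkpoint kinase, was at 16.8 to 38.5 CPM in HTG dogs (median 27.5) and 15.3 to 72.3 CPM in controls (median 29.7). The highest level was that of control 03. The log2 fold change of BUB1B was −0.18 (SE 0.17, adjusted P = 0.777). With that dog left out it was −0.08 (SE 0.15), a rise fixed by the choice. CDC20 (ENSCAFG00000005259), which switches on the destruction of mitotic cyclins, was at 4.45 to 19.2 CPM in HTG dogs (median 6.52) and 3.22 to 13.7 CPM in controls (median 6.10). Case 01 held its highest value, and the log2 fold change was 0.21 (SE 0.22, adjusted P = 0.802). TTK (ENSCAFG00000002842), the kinase at the head of the checkpoint, varied more between dogs than any other of the 39, with a coefficient of variation of 69.4%. It was at 13.8 to 94.5 CPM in HTG dogs and 12.4 to 194 CPM in controls, a 15.6-fold range over dogs, while both medians were 43.0 CPM. BUB1, CENPE, NDC80 and NUF2 had log2 fold changes between −0.10 and −0.01.

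The spindle and chromosome structure genes held 4 of 9 above 0, with a median log2 fold change of −0.06 and 0 past the test. TOP2A (ENSCAFG00000016090), the topoisomerase that untangles copied DNA, was at 36.8 to 72.2 CPM in HTG dogs (median 53.6) and 34.0 to 124 CPM in controls (median 52.3). Its log2 fold change was −0.08 (SE 0.15, adjusted P = 0.908), and the highest level was again that of control 03. BIRC5 (ENSCAFG00000005302), which carries AURKB to the centromere, was at 8.20 to 50.4 CPM in HTG dogs (median 23.6) and 7.48 to 69.5 CPM in controls (median 16.4). Although 10 of 13 HTG dogs exceeded the control median, the ranges overlapped almost wholly, and the log2 fold change was 0.22 (SE 0.25, adjusted P = 0.818). NCAPG (ENSCAFG00000016677), a condensin subunit that compacts chromosomes, had medians of 22.1 and 17.7 CPM and a log2 fold change of 0.13 (SE 0.15, adjusted P = 0.813). Without control 03, the highest dog for both, BIRC5 was at 0.42 and NCAPG at 0.22 (adjusted P = 0.310 and 0.420). A shift upwards was fixed by leaving that dog out. The motors KIF11, KIF20A and KIF23 and the spindle proteins NUSAP1, TPX2 and DLGAP5 lay between −0.10 and 0.09.

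Among the replication genes were the steadiest of the 39 as well as some of the most variable. MCM4 (ENSCAFG00000006598) and MCM7 (ENSCAFG00000014748), subunits of the ring that opens DNA, had coefficients of variation of 14.4% and 16.6%, and MCM4 ran from 43.1 to 64.8 CPM in HTG dogs (median 54.7) and from 41.5 to 79.7 CPM in controls (median 54.1). Over the 9 replication genes, 4 lay above 0 and 0 passed the test, with a median log2 fold change of −0.01. MCM2 (ENSCAFG00000004052), of the same ring, was at 15.0 to 34.1 CPM in HTG dogs (median 27.7) and 14.8 to 36.7 CPM in controls (median 24.0), with a log2 fold change of 0.07 (SE 0.13, adjusted P = 0.902). MCM5 (ENSCAFG00000001709) was at 18.1 to 38.4 CPM (median 26.3) and 12.8 to 46.1 CPM (median 24.3), with a log2 fold change of 0.05 (SE 0.16, adjusted P = 0.948).

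PCNA (ENSCAFG00000006030), the clamp that holds polymerases on DNA, was set apart by 1 library. It was at 27.8 to 42.3 CPM in HTG dogs (median 36.5) and 25.3 to 129 CPM in controls (median 30.1). The 129 CPM of control 09 stood far above every other dog, the next being case 09 at 42.3 CPM, and 11 of 13 HTG dogs lay above the control median. The log2 fold change was −0.01 (SE 0.17, adjusted P = 0.990) over all dogs. Without control 09 it was 0.23 (SE 0.06, unadjusted P = 0.00098, adjusted P = 0.136), and without control 03, 09 and 14 it was 0.24 (adjusted P = 0.0784), so that the difference did not pass the test in any of these fits. Control 09 was left out because its PCNA was the highest, so that a shift upwards was fixed by the choice. This dog also had the highest neutrophil marker score, and the part of neutrophils in its PCNA level was not tested.

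Nucleotide supply genes had the highest median log2 fold change of the 6 roles, 0.19 over 3 genes, all above 0, and 0 of 3 passed the test. TYMS (ENSCAFG00000018341), thymidylate synthase, was at 9.10 to 23.4 CPM in HTG dogs (median 11.2) and 6.69 to 16.9 CPM in controls (median 8.92). All 13 HTG dogs lay above the control median, yet the ranges overlapped between 9.10 and 16.9 CPM. Its log2 fold change was 0.37 (SE 0.14, 95% interval 0.08 to 0.65, unadjusted P = 0.0126), which did not pass the adjustment over all genes (adjusted P = 0.343). Leaving out control 03, the control highest for TYMS, gave 0.42 (adjusted P = 0.0839), and a shift upwards was fixed by that choice. The difference was 0.44 (SE 0.17) within the dogs low in small RNA and 0.24 (SE 0.24) within those high in it. With the erythroid marker score, described later, as a covariate it was 0.20 (unadjusted P = 0.0841, adjusted P = 0.594). The difference was above 0 in all 22 alternative fits, with an adjusted P from 0.0839 to 0.9996. RRM2 (ENSCAFG00000003409), the regulated subunit of ribonucleotide reductase, was at 10.8 to 25.3 CPM in HTG dogs (median 16.1) and 6.63 to 24.0 CPM in controls (median 13.7), with a log2 fold change of 0.19 (SE 0.16, adjusted P = 0.749). RRM1 (ENSCAFG00000005945), its large subunit, had a log2 fold change of 0.06 (SE 0.10) and a coefficient of variation of 19.2%.

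MKI67 (ENSCAFG00000013255), the Ki-67 antigen used to mark dividing cells, was at 86.4 to 242 CPM in HTG dogs (median 134) and 80.6 to 346 CPM in controls (median 139). The HTG range lay inside the control range, with control 09 and control 14 the highest dogs. Its log2 fold change was −0.11 (SE 0.18, adjusted P = 0.891). FOXM1, a transcription factor of mitotic genes, and UBE2C, the enzyme that tags mitotic cyclins for destruction, had log2 fold changes of 0.16 (SE 0.18) and −0.02 (SE 0.22).

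**Figure D2:**
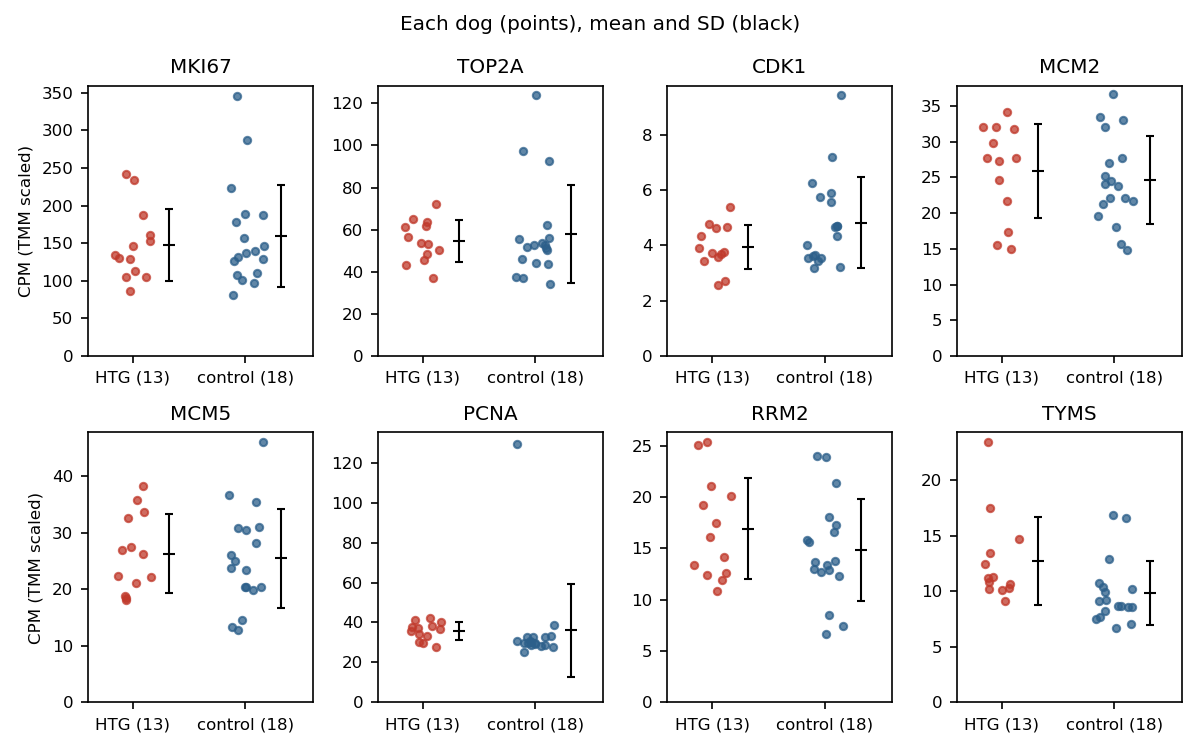
Levels in CPM (y axis, from 0) of 8 cell cycle genes in each of 13 HTG dogs (red) and 18 controls (blue), with the mean and SD of each group in black. The groups overlap in every panel, all 13 HTG dogs lie above the control median of TYMS, and control 09 stands apart for PCNA at 129 CPM.

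The dogs differed among themselves more than the groups did. The median coefficient of variation of the 39 genes over the 31 dogs was 36.1%, against 25.6% for all genes tested, a description with no test. The summed level of the 39 genes, which leans on those with most reads, ran from 677 CPM in control 15 to 1596 CPM in control 03, with 1411 CPM in control 09 and 1402 CPM in control 14, and the medians were 902 CPM in HTG dogs and 864 CPM in controls. Control 03 was not high for all genes. It held the highest TTK, CDC6 and BIRC5 but the lowest MCM7, and in its 18 highest genes it exceeded the next dog by 1.01-fold to 2.18-fold (median 1.54). Control 09 was instead highest for MKI67, UBE2C, KIF23, CDC45 and PCNA, and control 14 for CCNA2, MCM2, MCM3, MCM4, MCM5 and MCM7 among others.

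**Figure D3:**
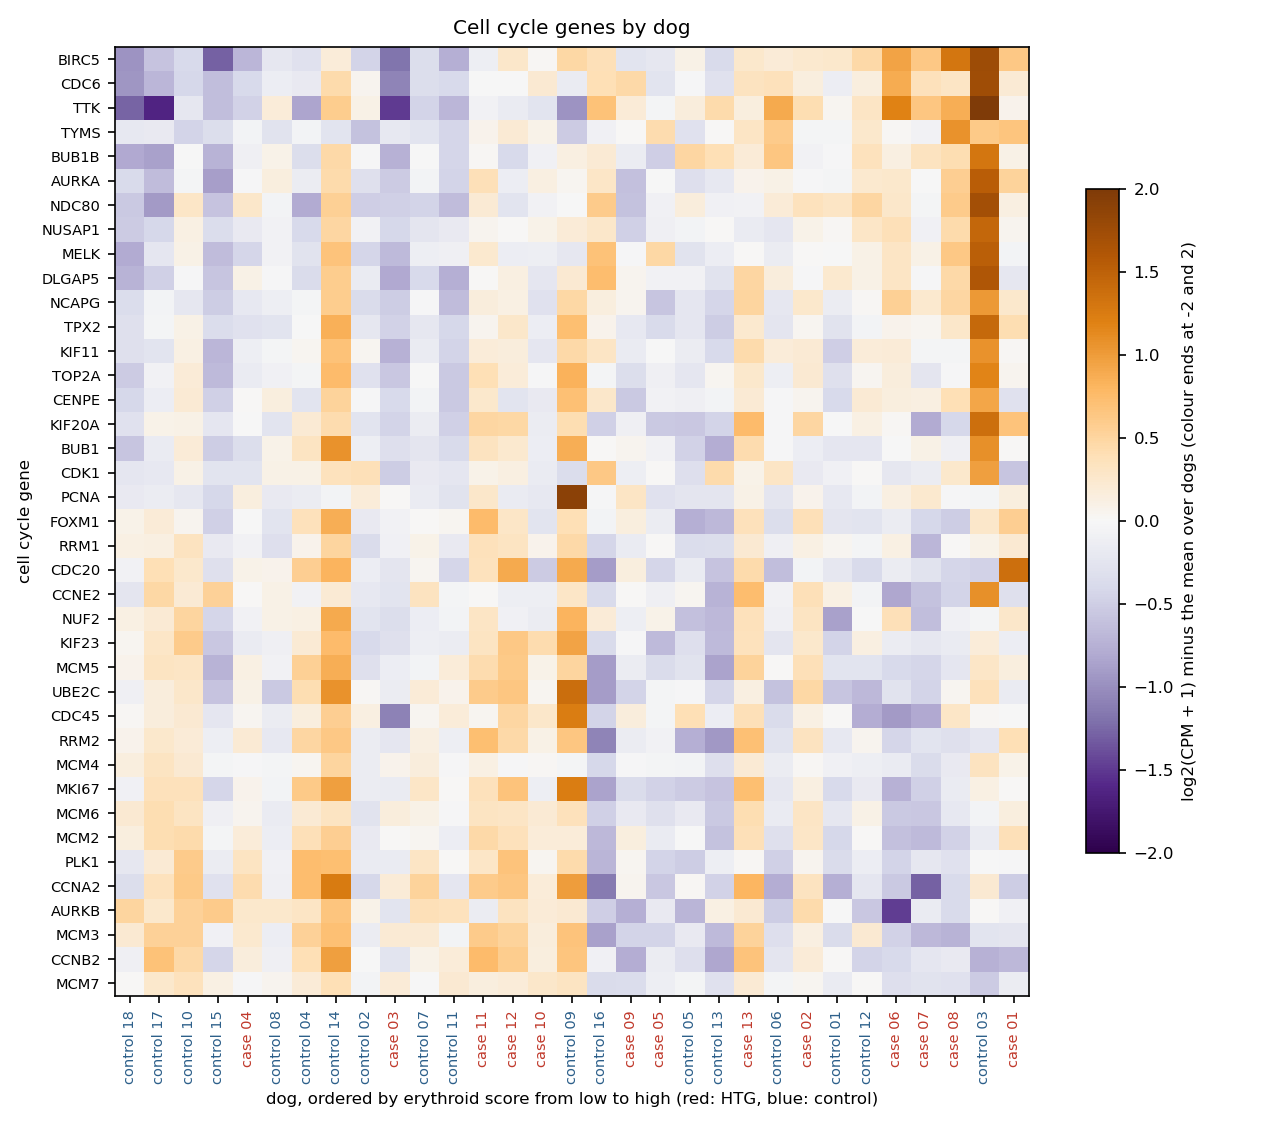
Level of each of the 39 cell cycle genes (rows) in each dog (columns, ordered from the lowest to the highest erythroid marker score), as log2(CPM + 1) minus the mean of the gene over dogs. The upper rows turn from purple to orange towards the right, with control 03 the darkest column, while control 14 and control 09 are orange over most rows.

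No difference between females and males passed for any of the 39 genes (edgeR with group as covariate, 0 adjusted P at or below 0.05, against 0.122% of all genes). CCNA2 (log2 difference female minus male −0.50, SE 0.25) and UBE2C (−0.46, SE 0.21) had an unadjusted P under 0.05, 2 of 39 against 4.89% of all genes, and neither did once control 09 or control 14 was left out. Without control 03, 09 and 14, the direction turned, with 27 of 39 genes higher in females against 12 of 39 over all dogs (median log2 difference 0.09 against −0.10). Then 13 of 39 had an unadjusted P under 0.05, against 12.2% of all genes, and 0 passed the adjustment. Leaving out the highest dogs, all males, fixes a shift in this direction. The interaction of HTG with sex passed for 0 of 39 genes, as for 0% of all genes, while 4 of 39 had an unadjusted P under 0.05 against 3.93% of all genes (6 of 39 by DESeq2, against 4.49% of all genes, with 0 past the adjustment). For all 39 genes the fitted HTG difference was higher in females than in males, with a median interaction of 0.36 on the log2 scale, where 53.0% of all genes lay above 0 with a median of 0.01. In females 34 of 39 fitted differences were above 0 and in males 2 of 39. CDC20 had the smallest P, with 4.83, 5.50, 9.66, 13.6 and 19.2 CPM in the 5 HTG females and 3.22 to 8.36 CPM (median 5.37) in the 8 control females. In males it was at 4.45 to 8.97 CPM (median 6.27) in HTG dogs and 4.24 to 13.7 CPM (median 6.76) in controls, and the interaction was 1.25 (SE 0.39, unadjusted P = 0.0031, adjusted P = 0.9999). TPX2, NCAPG and MKI67 had interactions of 0.86, 0.68 and 0.83 (adjusted P = 0.9999 for each). Without control 03, 09 and 14, which are all males, 25 of 39 interactions were above 0, with a median of 0.11, and 2 had an unadjusted P under 0.05, where 48.7% of all genes were above 0 and 2.68% had such a P. A shift downwards was fixed by leaving out the highest male controls. With only 1 of the 3 left out, 33, 36 and 37 of 39 were above 0, and 36 with the small RNA split as a covariate. For the same interaction, no marker of any of the 11 lists passed the adjustment (smallest adjusted P = 0.9999). At an unadjusted P under 0.05 were 4 of 12 erythroid markers, with a median interaction over the list of 1.39, and 6 of 8 plasma cell markers, with a median of 0.99, but 0 markers of the other 9 lists, whose medians ran from −0.43 to 0.24. The part of these markers in the values of the cell cycle genes was not tested.

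Nor did other genes of the cell cycle pass. Of 115 further genes of replication, mitosis, the G1 phase and cell cycle arrest, 104 were tested, 0 passed the adjustment, and 4 (3.85%, against 9.81% of all genes) had an unadjusted P under 0.05, 2 higher and 2 lower in HTG dogs. Their median log2 fold change was −0.01. CCND1 (ENSCAFG00000010700), the cyclin that answers growth signals, was at 2.45 to 8.16 CPM in HTG dogs (median 4.22) and 1.07 to 5.29 CPM in controls (median 2.84). Its log2 fold change of 0.64 (SE 0.18, unadjusted P = 0.00144) was the nearest to passing (adjusted P = 0.179). E2F5 (ENSCAFG00000008628), a repressor of cell cycle genes, had a log2 fold change of 0.65 (SE 0.28, adjusted P = 0.444), and CDK2 (ENSCAFG00000000082), the kinase partner of cyclin E, of −0.30 (SE 0.13, adjusted P = 0.452).

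Whether the cell cycle genes followed immature red cells or early granulocytes was asked by correlation over the 31 dogs. Marker scores were the mean log2 CPM of each marker list, centred on each gene, and P-values were two-sided permutation P-values adjusted over all 13918 genes for each score. Over 11 scores, 53 of 429 pairs of a gene and a score passed by r (60 by rho, whose share over all genes was not taken, and 49 by both). This is 12.4% of the pairs, near the 11.3% over all genes, so that only the counts for single scores are read further. Each of the 53 kept its sign within HTG dogs, within controls and within both sides of the small RNA split. The lists are short and share cells and libraries, so that a correlation places no transcript in a cell type.

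**Figure D4:**
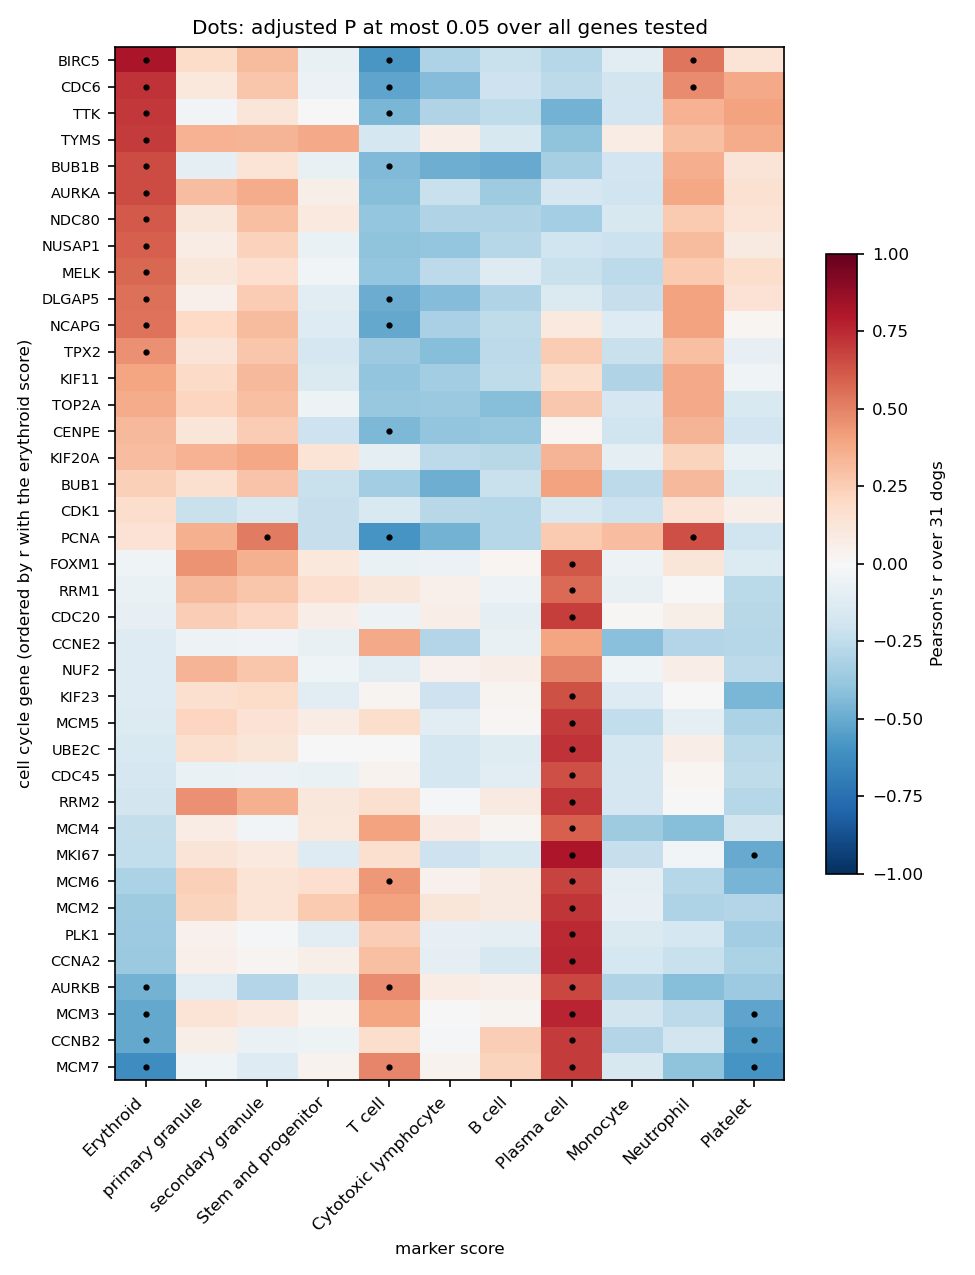
Pearson's r over 31 dogs (colour, red positive and blue negative) of each of the 39 cell cycle genes (rows, ordered by r with the erythroid score) with each of 11 marker scores (columns). Black dots mark an adjusted P at or below 0.05 over all genes, with 12 positive in the erythroid column and 18 in the plasma cell column, none of them the same gene.

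Of the 39 genes, 12 rose with the erythroid score, 30.8% against 15.2% of all genes, and 4 fell with it, 10.3% against 18.4% of all genes. The 12 included 3 of 7 checkpoint and 5 of 9 spindle genes. BIRC5 had the highest correlation (r = 0.82, P = 1e-05, the smallest that the permutations can give, rho = 0.82, P = 1e-05, adjusted P = 0.000163). It went from 7.48 CPM in control 15 to 69.5 CPM in control 03, and correlated above 0.5 with 11 of 12 single erythroid markers. Its r was 0.79 without case 01 and control 03, the dogs farthest from the median score, 0.77 within HTG dogs and 0.85 within controls. CDC6, which loads the MCM ring, had r = 0.72 (permutation P = 1e-05, rho = 0.68, P = 2e-05, adjusted P = 0.000163) and TTK had r = 0.70 (permutation P = 2e-05, rho = 0.70, P = 2e-05, adjusted P = 0.000282). TYMS was next (r = 0.70, permutation P = 4e-05, rho = 0.67, P = 7e-05, adjusted P = 0.000492), and r was 0.60 without case 01 and control 03. Correlations of BUB1B, AURKA, NDC80, NUSAP1, MELK, DLGAP5, NCAPG and TPX2 ran from 0.65 down to 0.46. That of TPX2 (rho = 0.33, which did not pass) rested on case 01 and control 03, since r was 0.14 without them.

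At the other end, MCM7 had the lowest correlation with the erythroid score (r = −0.62, permutation P = 0.00017, rho = −0.60, P = 0.00041, adjusted P = 0.00152), and r was −0.56 without case 01 and control 03. CCNB2, MCM3 and AURKB also fell with it (r = −0.51, −0.51 and −0.47), that of CCNB2 resting on the same dogs (r = −0.35 without them). Summed erythroid markers ran from 1170 to 21350 CPM in HTG dogs (median 4159) and from 899 to 29900 CPM in controls (median 1937). Of 12 erythroid markers, 11 lay above 0 in the HTG comparison, 3 with an unadjusted P under 0.05, against 9.81% of all genes, and 0 past the adjustment. Higher in HTG dogs at an unadjusted P under 0.05 were also 5 of 9 secondary granule, 2 of 4 primary granule, 9 of 10 platelet, 3 of 8 stem cell and 1 of 9 B cell markers, while 2 of 10 T cell markers were lower, all with 0 past the adjustment. When this score entered the HTG comparison, the median over the 39 genes was −0.03, as without it, and 3 of 39 had an unadjusted P under 0.05, against 9.33% of all genes.

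No cell cycle gene passed with the primary granule score, made of MPO, CTSG, SERPINB10 and CEBPE (0 of 39 by r and 0 by rho), where 0.74% of all genes rose and 0.223% fell with it, and 2 of 39 had an unadjusted P under 0.05 by r, against 13.0% of all genes. RRM2 had the highest r (0.46, permutation P = 0.0106, rho = 0.38, P = 0.0368, adjusted P = 0.207) and CDK1 the lowest (−0.22, adjusted P = 0.638). Without case 01 and case 11 the r of RRM2 was 0.34. The secondary granule score, with LTF, CAMP and LCN2 among its 9 genes, gave 1 of 39 (2.56%), against 2.71% of all genes, and 3 of 39 had an unadjusted P under 0.05, against 21.2% of all genes. The gene that passed was PCNA (r = 0.52, permutation P = 0.0007, rho = 0.59, P = 0.0007, adjusted P = 0.0263), with r = 0.56 without case 11 and control 12, the dogs farthest from the median score, and r = 0.57 without control 09. It did not pass without case 01 and control 03, the dogs highest for erythroid markers, nor within either group. The secondary granule score was itself correlated with the neutrophil score (r = 0.65) and the T cell score (r = −0.52). With these, PCNA had r of 0.64 and −0.59. No fit on them was made, so that a link of PCNA to early granulocytes apart from neutrophils was not tested. The lowest r with the secondary granule score was that of AURKB (r = −0.29, adjusted P = 0.347). Summed secondary granule markers were at 749 to 5857 CPM in HTG dogs (median 1380) and 433 to 4298 CPM in controls (median 735), and summed primary granule markers at 60.6 to 196 CPM (median 102) and 44.5 to 249 CPM (median 76.7).

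The score with the most links was that of plasma cells, the antibody-secreting cells that arise from dividing plasmablasts. Of the 39 genes, 18 rose with it, 46.2% against 4.02% of all genes, and 0 fell. MKI67 led (r = 0.81, permutation P = 1e-05, rho = 0.78, P = 1e-05, adjusted P = 0.00116). It went from 80.6 CPM in control 16 to 346 CPM in control 09 and correlated above 0.5 with all 8 single plasma cell markers, from 0.53 with DERL3 to 0.83 with MZB1. Its r was 0.73 without control 09 and control 14, 0.82 within HTG dogs and 0.80 within controls. MCM3 had r = 0.76 and CCNA2 r = 0.76 (permutation P = 1e-05 for both, rho = 0.78 and 0.76, P = 1e-05, adjusted P = 0.00116). RRM2 had r = 0.71 (permutation P = 1e-05, rho = 0.79, P = 1e-05, adjusted P = 0.00116). PLK1, UBE2C, MCM2, MCM5, CCNB2, MCM7, CDC20, MCM6, AURKB, CDC45, KIF23, FOXM1, MCM4 and RRM1 followed, from 0.75 down to 0.56, and all 18 had a permutation P under 0.05 without control 09 and control 14. TTK had the lowest r with this score (−0.47, adjusted P = 0.0794), and by rho it passed (−0.62, adjusted P = 0.0058). Summed plasma cell markers overlapped widely between the groups, at 238 to 739 CPM in HTG dogs (median 377) and 232 to 1118 CPM in controls (median 381). Some of the 8 markers, IRF4, PRDM1 and TXNDC5 among them, are also made by other blood cells.

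**Figure D5:**
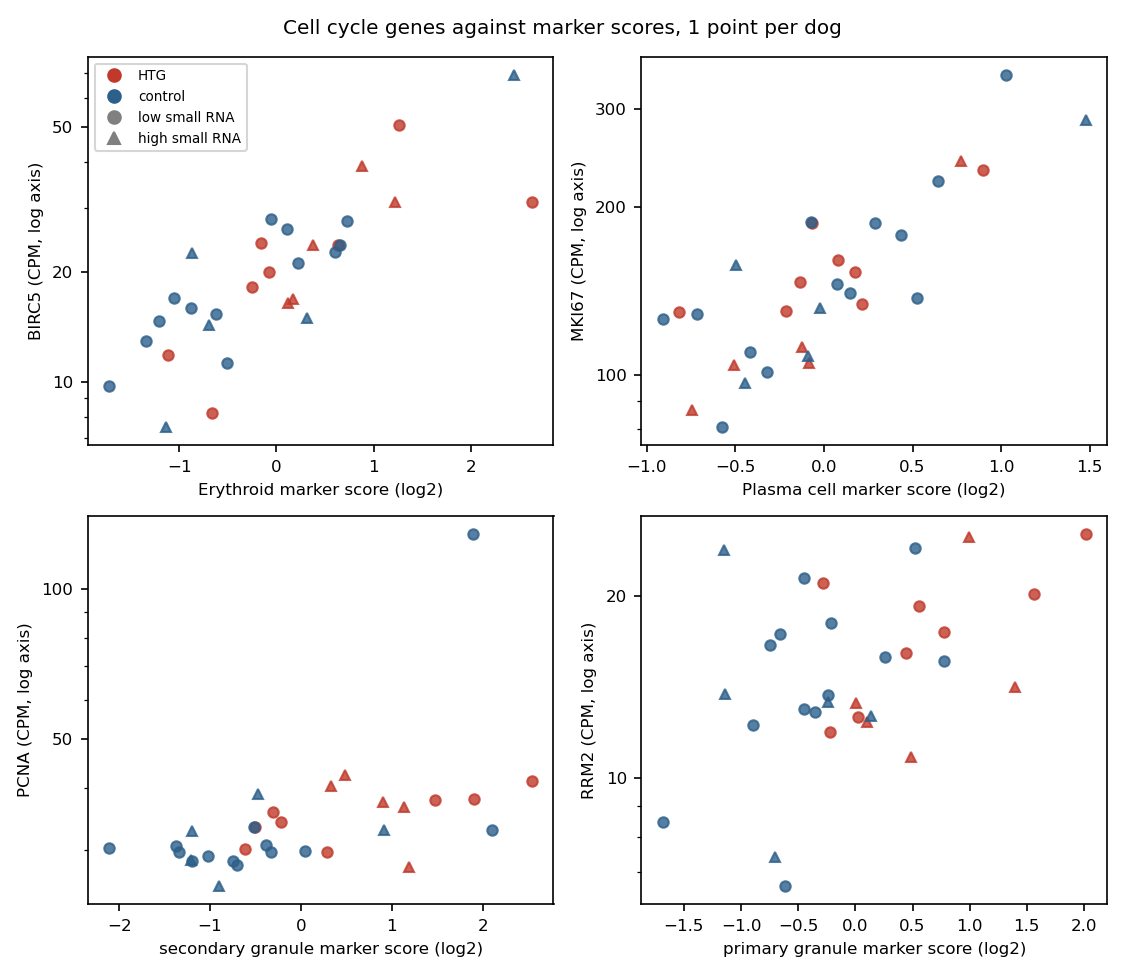
Level in CPM (y axis, log scale) of BIRC5, MKI67, PCNA and RRM2 against the erythroid, plasma cell, secondary granule and primary granule marker scores (x axis, log2), 1 point per dog, red for HTG and blue for control, triangles for dogs high in small RNA. BIRC5 and MKI67 rise over the whole range of their scores in both groups, and PCNA is at 129 CPM in control 09 alone.

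No gene was positively linked to both the erythroid and the plasma cell score, and the 4 genes that fell with the erythroid score all rose with the plasma cell score. Roles were split between the scores, with no test of role. The plasma cell score took 7 of 9 replication genes, 4 of 8 kinases and cyclins, 2 of 3 nucleotide supply genes and 3 of 3 of MKI67, FOXM1 and UBE2C. Among the checkpoint genes it took 1 of 7 and among the spindle genes 1 of 9, where the erythroid score took 3 and 5, and 3 of each were linked to neither. The erythroid score also took 2 of 8 kinases and cyclins, 1 of 9 replication genes and 1 of 3 nucleotide supply genes. The scores themselves were correlated over dogs at r = −0.50, so that part of either link could repeat the other. The erythroid score was also correlated with the neutrophil score (r = 0.56), the T cell score (r = −0.53) and the secondary granule score (r = 0.41), and no fit on these was made. Of the 12 genes, BIRC5, CDC6, TTK, BUB1B, DLGAP5 and NCAPG also passed with the T cell or the neutrophil score. After a linear fit on the other score, chosen after these values were seen, the 12 genes had r of 0.54 to 0.81 with the erythroid score and the 18 had r of 0.56 to 0.82 with the plasma cell score, given as a description with no test. After the same fits 5 genes had r above 0.5 with both scores, namely TPX2 (0.70 erythroid and 0.63 plasma cell), NCAPG (0.69 and 0.51), TOP2A (0.61 and 0.57), KIF20A (0.58 and 0.60) and BUB1 (0.56 and 0.62).

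Of the other scores, the T cell score passed with 11 genes. MCM7, AURKB and MCM6 rose with it (3 of 39, against 17.4% of all genes), and PCNA, BIRC5, CDC6, NCAPG, DLGAP5, TTK, CENPE and BUB1B fell (8 of 39, against 15.1% of all genes), PCNA the most (r = −0.59, permutation P = 2e-05, rho = −0.60, P = 0.00053, adjusted P = 0.000412). The neutrophil score, which ran against the T cell score (r = −0.83), rose with PCNA, BIRC5 and CDC6, with r of 0.64, 0.54 and 0.48. These were 3 of 39 (7.69%), against 14.7% of all genes. By rho 9 of 39 passed, for which no share of all genes was taken, so that this count is not read further. MKI67, MCM3, CCNB2 and MCM7 fell with the platelet score (4 of 39, against 6.12% of all genes), with r of −0.50 to −0.59. Without the dogs farthest from the median score, CENPE with the T cell score (r = −0.35) and MKI67 with the platelet score (r = −0.35) no longer had a P under 0.05. The stem cell, cytotoxic lymphocyte, B cell and monocyte scores passed with 0 genes by r and 0 by rho, and 1, 9, 3 and 1 of the 39 had an unadjusted P under 0.05, against 9.56%, 20.1%, 12.5% and 10.6% of all genes. CDK1, CCNE2, BUB1, NUF2, TOP2A, KIF11 and KIF20A passed with none of the 11 scores.

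Among themselves the 39 genes were correlated at a median r of 0.41 over 741 pairs, as a description, since all values come from the same 31 libraries. MCM2 with MCM6 (r = 0.91) and MCM3 with MCM6 (r = 0.91) were the closest pairs, next to TTK with CDC6 (r = 0.90) and MCM5 with MKI67 (r = 0.89). The most opposed pair was TTK with MCM7 (r = −0.65). The 12 genes linked to the erythroid score had a median r of 0.76 with each other, the 18 linked to the plasma cell score one of 0.69, and the median between the sets was −0.06. Each set was chosen for following 1 of 2 opposed scores, which by itself makes r higher within than between the sets. Centring each value on its group and small RNA side left the median over all pairs at 0.44. MKI67 had the highest median r with the other genes (0.60), and TTK and TYMS the lowest (−0.08 and −0.01).

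The genes outside the 42 most like their mean over dogs were SHCBP1 (r = 0.90), CLSPN (r = 0.88), CIT (r = 0.87), TICRR (r = 0.86), MCM10 (r = 0.84), PLK4 (r = 0.83), RACGAP1 (r = 0.81), DEPDC1B (r = 0.81), ERLEC1 (r = 0.79) and HIST2H2BF (r = 0.79). These values are a ranking over 31 dogs and were not tested. CLSPN, MCM10 and TICRR act in replication, and CIT, RACGAP1 and PLK4 in cell division and centriole copying. None of the 10 passed the test between HTG dogs and controls, with log2 fold changes of −0.17 for TICRR to 0.07 for CIT and adjusted P of 0.688 or more.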

How the data were processed

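Whole blood RNA of 31 dogs was sequenced as paired reads. Per the labels, ribosomal RNA was removed and the libraries were made with a stranded total RNA kit for low input. The labels also give the molecule as polyA RNA, which conflicts with that kit and bears on the small RNA counts; it was not resolved. The authors trimmed the reads with Trimmomatic and aligned them with HISAT2 to the Boxer genome assembly. The deposited values are raw counts per gene and dog, read from pairs of which both mates mapped; the counter, annotation and strand setting were not given in the sources used here, so overlapping and antisense genes could not be told apart. The study corrected for a pilot batch of 10 dogs (5 cases and 5 controls) that the labels do not name. A split of dogs by small RNA counts is given instead, whose high side also held 10 dogs, 5 HTG and 5 control. Whether these are the same dogs was not tested. The main HTG comparison and the correlations over all dogs carry no term for that batch. Groups and sex came from the labels, and each dog was 1 replicate.

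Counts were filtered (filterByExpr), TMM scaled and tested with edgeR 4.0.16 in R 4.3.3 (quasi-likelihood, Benjamini-Hochberg over 13918 genes, threshold 0.05). Of 32704 rows, 7120 held no counts. Log2 CPM used a prior count of 2. Correlations used 100000 permutations in Python 3.11.15 and were adjusted over all genes for each score, in place of the planned adjustment over pairs of gene and score. In counts simulated with 2-fold changes for 13796 genes, the HTG comparison recovered 84.2% of 196 changed genes and 3.51% of its 171 calls were unchanged genes. For the interaction, simulated over 13775 genes, 39.2% of 199 were recovered and 7.14% of 84 calls were unchanged genes. DESeq2 1.42.0 and limma 3.58.1 were alternatives, as was age, taken from the study's description of the dogs, as a covariate.

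The 42 genes, the further cell cycle genes and the marker lists were chosen with earlier results of these data known. Named in full were 8 genes standing for the roles, the 8 with the smallest P, the highest and lowest correlations with the erythroid and granulocyte scores, and the 3 most and 3 least variable. Outside the 42, the 10 genes most like their mean and the 3 further cell cycle genes with the smallest P were named. Control 03, control 09 and control 14 were left out in alternatives added after seeing the data, as was the plasma cell covariate. No column of other samples was present. Lengths and coordinates of genes were not used here.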

Additional observations from a re-analysis of the deposited data

How the results depend on the processing

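No cell cycle gene passed the adjusted threshold in any of 22 alternative fits of the HTG comparison, or in those of sex and of the interaction. The count with an unadjusted P under 0.05, 1 over all dogs, was 2 with upper quartile scaling, with the small RNA split, T cell score or plasma cell score as covariate, and on the high side of the split alone, 3 with the erythroid score as covariate, 0 with the primary granule score and 0 with the replicate block. Leaving out a single control (03, 09 or 14) gave 1 to 3, and all 3 of them 6. The median log2 fold change of the genes was −0.26 on the high side and 0.17 without those 3 dogs. DESeq2 called 84 of all genes, against 5 by edgeR, 154 passed without control 03, 28 without case 01 and control 03, and 27 without the 3 dogs. With limma-voom, the replicate block, either side of the split alone or the primary granule score 0 passed, although 1556, 858, 518, 1510 and 966 had an unadjusted P under 0.05. Counting only genes with at least 10 counts in every dog left 1, the T cell score 2 and leaving out control 14 left 3. TYMS fell from 0.37 to 0.20 with the erythroid score. The causes were not tested.

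Some directions turned, and the median of the genes, without passing any test, was 0.062 by limma-voom, 0.036 with the replicate block, 0.012 with the plasma cell score, 0.11 on the low side, 0.014 without case 01 and control 03, 0.021 without control 03 alone and 0.0094 without control 14 alone. TOP2A was 0.00020 by limma-voom, 0.074 on the low side, 0.012 without case 01 and control 03, −0.026 to 0.013 with 1 of the 3 controls left out, and 0.17 with all 3 left out, which turned MKI67 to 0.10. MCM2 and MCM5 were −0.10 and −0.13 on the high side and −0.043 and −0.061 with the primary granule score, which turned RRM2 to −0.10 and CDC20 to −0.0034. NCAPG was −0.011 with the erythroid score. PCNA was 0.10 by limma-voom, 0.0014 and 0.21 with the split as covariate and on the high side, 0.066 with the replicate block, 0.061 with the plasma cell score, −0.029 to 0.23 with 1 of the 3 controls left out (0.23 without control 09) and 0.24 without the 3 controls. Dogs with the same number in both groups share only that number: over 13 pairs their deviations correlated at −0.44 to 0.26, 3 above 0.1.

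With the 429 pairs tested anew in part of the dogs, 1 passed within HTG dogs and 21 within controls. On the high side 2 passed and on the low side 25. These counts, from fewer dogs, are not limited to the 53 pairs that passed over all dogs, whose signs were kept. Shares of all genes in these sets were not taken. With the erythroid score, 1 gene passed within HTG dogs, 2 within the high side and 8 within the low side, beside 16 over all dogs. No pair with the plasma cell score thus passed within HTG dogs or within the high side, beside 18 over all dogs. PCNA did not pass with the secondary granule score within either group or side, after centring, or without case 01 and control 03 (0 genes each). By interaction, 2 genes had an unadjusted P under 0.05 without the 3 controls, and by sex 13. CCNB2 held the lowest single count of the 39, 9 in 1 dog, while CCNE2 ran from 13 to 93 counts, so that depth limits both.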
